A study of Drosophila melanogaster with 4 samples.

Results

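Acetylation of histone H3 at lysine 27 (H3K27ac) was mapped by ChIP-seq in wild-type Drosophila melanogaster of strain Oregon-R, in larvae of the third instar, and the regions described here are those on the X chromosome. A region was taken when its list named it as enriched, placed it on X and gave it a start at or below position 20000000 of FlyBase release 5. This held for 856 of 5501 regions of ChIP replicate 1, for 891 of 5426 regions of ChIP replicate 2 and for 992 of 6270 regions of a further list that covers the replicate set. None of the 3 regions that the replicate set names as depleted lay on X. The last region inside the limit started at 19778356 in replicate 1 and at 19783660 in replicate 2, and the next one outside started at 20042585 and 20015832. No listed region ran across the limit, so 20 Mb of the 22.42 Mb of X sequence were described.

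All 4 samples of the study, 2 ChIP and 2 input, share strain and stage, and no input values were used here. The ChIP used a polyclonal antibody that recognises H3 acetylated at lysine 27. Chromatin came from homogenised, formaldehyde-fixed tissue of larvae, so every list averages over many cell types, and a site marked in few cells cannot be told apart from one marked weakly in many. The labels used here do not give the sex of the larvae, nor whether the replicates came from separate collections, so the spread between replicates may be technical. The lists hold no read counts and the depth behind each region is unknown. With 2 replicates of 1 condition no test was run, and differences are set beside the standard deviation (SD) of the replicates. No file used here measures expression, so the tissue was not checked against marker genes, and sites are given by position, without gene names or sequence.

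H3K27ac is written by the acetyltransferase CBP, called Nejire in flies, and marks active promoters and enhancers. The same lysine can instead carry the methylation that Polycomb proteins use to keep genes silent, so the modifications exclude each other on a histone tail. The X is a special case among fly chromosomes, because males carry no second copy and the male-specific lethal complex raises its transcription through acetylation of histone H4. H3K27ac regions on the X therefore sit on a chromosome that is regulated as a whole as well as gene by gene.

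H3K27ac regions covered 24.8% of the 20 Mb in replicate 1 and 23.3% in replicate 2, a mean of 24.1% ± 1.09 (SD, n = 2). They numbered 42.8 and 44.6 per Mb. The median region was 3761 bp wide in replicate 1 and 3427 bp in replicate 2, and widths ran from 1310 bp to 52.0 kb and from 1302 bp to 49.9 kb. Each region has a score given by the authors, which is read here as a log2 value with an unknown zero. In replicate 1 the X scores had a median of 1.02 and ran from 0.19 to 2.59. In replicate 2 their median was 0.97 and they ran from 0.25 to 2.47. Wide regions tended to score high, with a Spearman rho of score against width of 0.82 across the 856 regions of replicate 1 and 0.81 across the 891 of replicate 2. Regions within a list share 1 library, and this rho is a description.

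Regions were unevenly spaced. The gap from the end of a region to the start of the next had, at the median, 4756 bp in replicate 1 and 4500 bp in replicate 2, while the mean gap was 17.3 kb and 17.0 kb. The SD of the gaps was 2.05 and 2.03 times their mean. Neighbours lay within 1 kb of each other at 152 of 855 gaps (17.8%) in replicate 1 and at 174 of 890 gaps (19.6%) in replicate 2. Gaps of at least 50 kb were few, 83 (9.71%) in replicate 1 and 87 (9.78%) in replicate 2, and yet they made up 8.84 Mb and 9.01 Mb, or 44.2% and 45.0% of the 20 Mb. Much of the unmarked sequence thus lay in a small number of long gaps. Spacing was also uneven on the large autosomal arms (2L, 2R, 3L and 3R, taken whole). There, gaps of at least 50 kb were 8.94% of gaps in replicate 1 and 9.09% in replicate 2, over 41.7% and 42.6% of the sequence. Neighbours lay within 1 kb at 17.5% and 15.5% of these gaps, and the SD of the gaps was 1.93 and 1.97 times their mean.

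**Figure D1:**
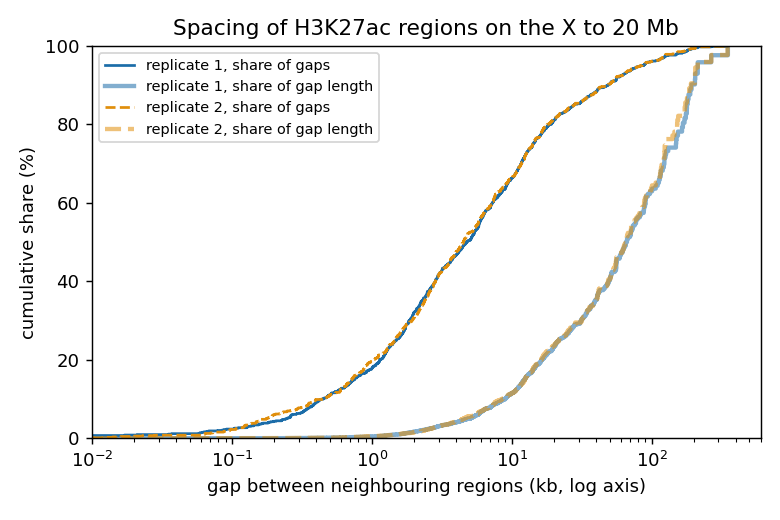
Cumulative share of gaps (thin lines) and of total gap length (thick lines) against the length of the gap between neighbouring regions in kb, on a log axis, for both replicates. Gaps under 1 kb are 17.8% of all gaps in replicate 1 and 19.6% in replicate 2 and hold 0.441% and 0.517% of the gap length, and the lines of the replicates lie close together.

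Spacing around a marked site was followed outward from the edges of stretches that both replicates list, that is, runs of bases listed by replicate 1 as well as replicate 2. From 5 to 20 kb beyond the edges of the 90 such stretches of 10 kb or more, 39.1% of the bases were listed in replicate 1 and 35.5% in replicate 2. From 20 to 50 kb the shares were 27.2% and 25.6%. Around the 757 stretches of 1 to 10 kb, the shares were 36.8% and 34.4% from 5 to 20 kb and 30.9% and 28.8% from 20 to 50 kb. Sequence 5 to 20 kb from a marked stretch was thus more often marked than the X as a whole, around wide and narrow stretches alike. Flanks of neighbouring stretches overlap, so these shares are descriptions.

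Cut into 40 windows of 500 kb, the X had no empty window, but the covered share varied from 6.26% to 42.5% with a median of 24.3% (means of both replicates). The densest window ran from 6.5 to 7 Mb and was covered to 44.3% in replicate 1 and 40.7% in replicate 2. The next 3 lay side by side near the start of the sequence, from 2 to 2.5 Mb (39.7% and 37.0%), from 1 to 1.5 Mb (36.6% and 33.9%) and from 1.5 to 2 Mb (36.1% and 33.3%). The fifth lay from 11 to 11.5 Mb, at 35.7% and 32.4%. These windows held 22 to 32 regions in replicate 1 and 29 to 36 in replicate 2.

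The emptiest window, from 5 to 5.5 Mb, was covered to 5.86% in replicate 1 and 6.67% in replicate 2, with 6 and 9 regions. It was followed by the windows from 14 to 14.5 Mb (8.46% and 7.12%), from 4 to 4.5 Mb (8.90% and 7.85%), from 7 to 7.5 Mb (10.6% and 11.0%) and from 12 to 12.5 Mb (14.3% and 13.7%). Between the windows from 4 to 4.5 Mb and from 5 to 5.5 Mb lay one of ordinary coverage, 21.6% and 23.0%. The densest window and the one that follows it differed by 31.7 percentage points, the largest step between neighbours. The SD between replicates of a window had a median of 1.17 percentage points and a maximum of 2.53, so the contrast between dense and empty windows was far larger than the difference between replicates. The emptiest windows held 6 to 15 regions in replicate 1 and 7 to 17 in replicate 2. Their median scores ran from 0.69 to 1.39 and from 0.67 to 1.08, and overlapped those of the densest windows, 0.93 to 1.34 and 0.87 to 1.20. Across the 40 windows, the covered share had a Spearman rho of 0.80 with the number of regions in replicate 1 and 0.86 in replicate 2, and of 0.25 and 0.38 with their median score. The number of regions enters the covered share directly, so these values only describe it.

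**Figure D2:**
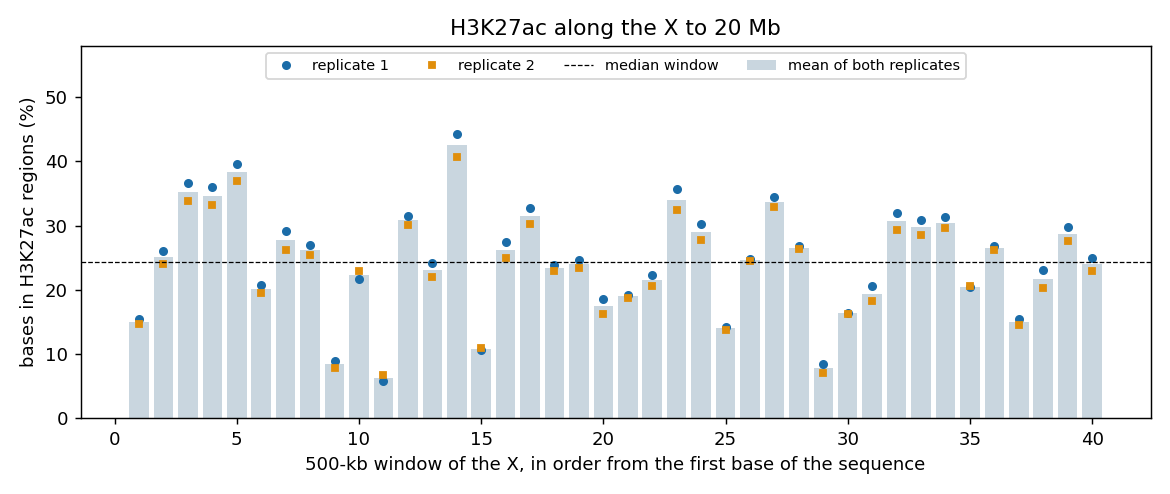
Share of bases in H3K27ac regions in each of the 40 windows of 500 kb of the X, in order along the sequence. Bars are the mean of both replicates, circles and squares the replicates, and the dashed line the median window at 24.3%. Window 14 is the densest (44.3% and 40.7%), window 15 next to it holds 10.6% and 11.0%, and window 11 is the emptiest (5.86% and 6.67%).

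At a finer scale, 91 of 400 windows of 50 kb (22.8%) held no listed base in either replicate, and 62 were covered to at least 50%. The longest streak of empty windows was 6. The fullest, from 8750001 to 8800000, was covered to 92.5% in replicate 1 and 93.4% in replicate 2. The next were 12600001 to 12650000 (86.2% and 83.2%) and 650001 to 700000 (84.8% and 82.5%). Neighbouring windows resembled each other a little at 50 kb, with a Spearman rho of 0.27, and hardly at 500 kb, with 0.04. At 100 kb the rho was 0.18, at 250 kb 0.03, and at 1 Mb, over only 20 windows, -0.34. A region that crosses a border adds to both windows. The covered share of a 500-kb window thus said little about that of the next, although 3 of the 5 densest lay side by side.

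Stretches in which neither replicate lists a region exceeded 50 kb 83 times and 100 kb 33 times. Those over 100 kb added up to 5.16 Mb, or 25.8% of the 20 Mb. The longest ran over 348 kb from 14137507 to 14485927. Another of 191 kb, from 14490606 to 14681509, began less than 5 kb after its end. The regions between them were 2406 bp wide with a score of 0.70 in replicate 1, and 1367 and 2667 bp wide with scores of 0.66 and 0.64 in replicate 2. A small, low-scoring patch thus separated 2 of the 6 longest empty stretches of the X.

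The second longest empty stretch, 266 kb from 7235907 to 7502336, began at the edge of a strongly marked site. The region before it was 8651 bp wide with a score of 2.28 in replicate 1, and 9020 bp with 2.23 in replicate 2, among the 10 highest mean scores of the X. The region after it was 4927 and 4704 bp wide, with scores of 0.64 and 0.67. The stretch of 183 kb from 3380828 to 3564104 was bounded on its far side by one of the widest regions, with 27.0 kb in replicate 1 and 27.2 kb in replicate 2. At other borders the flanking regions were weak: before the longest stretch lay regions of 1855 and 1403 bp with scores of 0.41 and 0.34.

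The others among the 10 longest empty stretches measured 213 kb (from 4220337 to 4433549), 205 kb (4988979 to 5193543), 204 kb (4598323 to 4802276), 188 kb (12152216 to 12339733), 179 kb (12801084 to 12979833) and 176 kb (13892899 to 14068465). Together the 10 took up 2.15 Mb, and 3 of them lay between 4.2 and 5.2 Mb. The list of the replicate set placed 13 regions inside the 10 stretches and none inside 4 of them, those of 266, 205, 204 and 183 kb. The 13 were at most 1805 bp wide and scored at most 0.51. An empty stretch means that no region was listed there. What share of it reads could be mapped to is not known here.

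Wide domains held a large part of the marked sequence. Regions of 10 kb or more numbered 118 of 856 in replicate 1 (13.8%), against 10.0% of all regions of that list, and 97 of 891 in replicate 2 (10.9%), against 8.61%. They contained 40.8% of the marked bases of the X in replicate 1 and 34.4% in replicate 2. On the large autosomal arms these shares were 32.4% and 29.3%, and 2R came nearest to the X with 36.5% and 32.3%. Wide regions of the X scored 1.63 at the median in replicate 1 and 1.60 in replicate 2, beside 0.92 and 0.90 for narrower regions. In replicate 1, 30 reached 20 kb and 7 reached 30 kb, and in replicate 2 these counts were 21 and 6. Centres of successive wide regions lay a median of 114 kb apart in replicate 1 and 120 kb in replicate 2, with extremes of 11.1 to 834 kb and 11.4 to 977 kb. Of the 40 windows of 500 kb, 1 held no wide region in either replicate, from 18 to 18.5 Mb.

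The widest domain of the X lay alone. Replicate 1 listed it over 52.0 kb (12606913 to 12658932) and replicate 2 over 49.9 kb (12608400 to 12658277), with scores of 2.21 and 2.23. Its next neighbour was 26.9 and 28.4 kb away on the left, and 123 and 124 kb away on the right. To its left stood another wide stretch, from 12547077 to 12574400. Replicate 1 listed that stretch as 27.3 kb with a gap of 104 bp to the next region, and replicate 2 as 32.9 kb in 1 piece, with scores of 2.24 and 2.03. The replicate set gave 53.6 kb and 33.0 kb for the 2 domains.

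The second widest, from 6865970 to 6909074, stood in the densest window. It spanned 47.6 kb in replicate 1 and 43.1 kb in replicate 2, where a gap of 540 bp cut off its left end, and it scored 1.95 and 1.92. In the same window, 87.7 kb to its left in replicate 1, lay a domain of 32.2 kb in replicate 1 and 30.6 kb in replicate 2 (shared from 6741669 to 6772080). This domain had the highest mean score of all one-to-one pairs on the X, 2.48 in replicate 1 and 2.43 in replicate 2. Between the 2 domains neither replicate listed a region, apart from the end that replicate 2 cut off.

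The remaining wide stretches measured 33.4 and 32.5 kb in replicates 1 and 2 (1141647 to 1173830), 32.4 and 30.6 kb (10610632 to 10641235), 29.2 and 28.8 kb (13517512 to 13546275), 28.0 and 27.5 kb (2176331 to 2203764), 27.0 and 27.2 kb (3564231 to 3591241), and 27.0 and 26.4 kb (8768291 to 8794692). The last of these lies in the fullest 50-kb window. Surroundings of the wide domains were of both kinds. The domain at 8768291 had neighbours within 2.5 kb on both sides in each replicate, and that at 1141647 within 4.8 kb. The domain at 10610632 followed a gap of 113 kb in replicate 1 and 114 kb in replicate 2. Width did not fix the score: the domain at 13517512 scored 1.45 and 1.41, and that at 1141647 scored 1.58 and 1.47, while the other 8 scored from 1.81 to 2.48 in replicate 1 and from 1.91 to 2.43 in replicate 2.

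**Figure D3:**
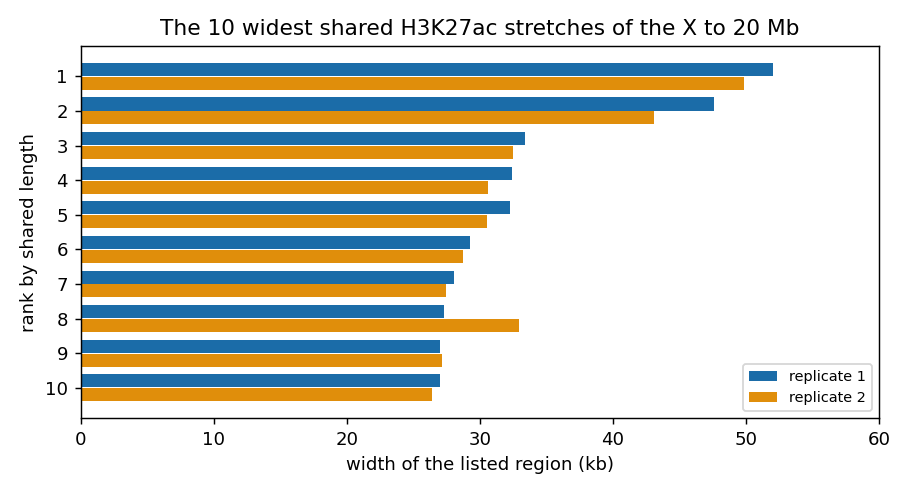
Width in kb of the listed regions that contain the 10 widest shared stretches of the X, ranked from the top by shared length, with replicate 1 above replicate 2 at each rank. Ranks 1 and 2 reach 52.0 and 47.6 kb in replicate 1, and at rank 8 replicate 2 (32.9 kb) exceeds replicate 1 (27.3 kb).

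High scores also occurred in regions under 10 kb, although those named here were wider than the median region of their list. The region at 8134052 to 8142427 scored 2.59 in replicate 1, the highest value of that list on the X, and 2.29 in replicate 2, at widths of 8376 and 7016 bp. The region at 528281 to 533123 scored 2.33 and 2.29 at widths of 4843 and 4657 bp, and that at 6987524 to 6992929 scored 2.29 and 2.28 at 5406 and 4648 bp. Among the 10 highest mean scores, widths in replicate 1 thus ran from 4843 bp to 52.0 kb. The highest score of replicate 2 on the X, 2.47, belonged to a region of 5984 bp from 13222982 to 13228965, which is not one of the one-to-one pairs.

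The replicates placed the mark at largely the same sites. In replicate 1, 761 of 856 X regions had at least 1 bp in common with replicate 2 (88.9%, 95% Wilson interval 86.6 to 90.8), against 88.7% over the whole list. In replicate 2, 830 of 891 were shared in this sense (93.2%, interval 91.3 to 94.6), against 93.7% over the whole list. The intervals cover counting error only. At this limit of 1 bp both shares were close to those of the whole lists. When each region of a pair had to cover 50% of the other, 81.4% of replicate 1 and 78.2% of replicate 2 regions of the X were shared, against 82.9% and 84.9% on the large arms. Of all bases listed in either replicate on the X, 84.1% were listed in both, and on the autosomal arms 84.2%.

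Whether a region was shared went with its score. Scores rose with width on the X, so the parts of score and width are not told apart here. The X regions of each replicate were split by score into 5 classes of near-equal size. In the lowest class 98 of 172 regions of replicate 1 (57.0%) and 132 of 179 of replicate 2 (73.7%) were shared, in the next 88.3% and 94.4%, and in the middle one 99.4% and 97.8%. In each of the 2 highest classes all 171 regions of replicate 1 and all 178 of replicate 2 were shared. All 118 and all 97 wide regions overlapped the other replicate. A wide region meets the limit of 1 bp more easily. Shares for these classes over the whole lists are not given here. The 95 unshared regions of replicate 1 were small and weak, at medians of 1702 bp and a score of 0.54, and so were the 61 of replicate 2, at 1522 bp and 0.56. The nearest region of the other replicate lay, at the median, 2118 bp away for replicate 1 and 2440 bp away for replicate 2. The highest-scoring ones were the region from 12563 to 14763 in replicate 1, with a score of 0.92 and 2201 bp, and that from 17786076 to 17788076 in replicate 2, with 0.98 and 2001 bp. Of the unshared regions, 92 of 95 and 61 of 61 overlapped a region of the replicate set, against 853 of 856 and 891 of 891 of all X regions. The set covers the same replicates, so this overlap is no independent support for them.

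Edges and scores were compared in the 616 one-to-one pairs, in which each region overlaps only the other. Starts differed by a median of 145 bp and ends by a median of 163 bp, and 249 starts (40.4%) and 232 ends (37.7%) matched within 100 bp. In the 3466 pairs on autosomal arms, 46.0% of starts and 46.6% of ends did so. Replicate 1 reached further out, with its start 50 bp before and its end 57 bp after those of replicate 2 at the median, and 425 of 616 pairs (69.0%) were wider in replicate 1, against 65.8% of the autosomal pairs. Across pairs the scores correlated at 0.94 by Spearman's rho and 0.95 by Pearson's r, as a description across regions of 1 chromosome. They were higher in replicate 1 in 427 of 616 pairs (69.3%), with a median difference of 0.06, and how far the scales of the 2 lists match is unknown. On the 4 large autosomal arms 2L, 2R, 3L and 3R, the same difference was between 0.05 and 0.08, and between 63.6% and 71.4% of pairs were higher in replicate 1.

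**Figure D4:**
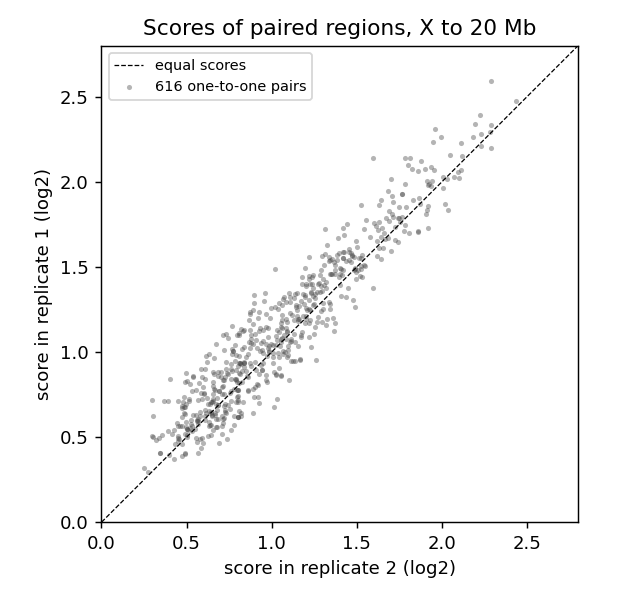
Score in replicate 1 against score in replicate 2, both given by the authors and read here as log2 values, for the 616 one-to-one pairs of the X. Points follow the dashed line of equal scores with a Spearman rho of 0.94, and 427 of them lie above it.

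The largest disagreements among pairs were modest beside the range of scores. The region at 1369678 to 1378243 scored 2.14 in replicate 1 and 1.60 in replicate 2, a difference of 0.54, at widths of 8566 and 7879 bp. The next 4 differed by 0.42 to 0.47, and in all 5 the score was higher in replicate 1. The largest ratio of widths was 2.32, at 8027796 to 8031241, where the region measured 3446 bp in replicate 1 and 1484 bp in replicate 2 with scores of 0.63 and 0.58. In all 5 pairs with the largest ratios, from 2.03 to 2.32, the region was wider in replicate 1.

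Agreement held along the whole X. Over 20 bins of 1 Mb, covered shares of the replicates had a Spearman rho of 0.99, and replicate 1 covered more in 19 of the bins. The exception was the bin from 4 to 5 Mb, with a ratio of 0.99, and the highest ratio was 1.11, from 18 to 19 Mb. Bases listed in both made up between 76.8% (18 to 19 Mb) and 87.8% (12 to 13 Mb) of those listed in either. The share of replicate 1 regions that were shared ran from 78.8% (9 to 10 Mb, 41 of 52) to 95.7% (11 to 12 Mb, 45 of 47). For replicate 2 it ran from 84.2% (5 to 6 Mb, 32 of 38) to 98.4% (1 to 2 Mb, 63 of 64). The median score difference of pairs was positive in 18 of 20 bins, and was -0.01 from 4 to 5 Mb and -0.0049 from 18 to 19 Mb. In the 5 emptiest windows of 500 kb, bases listed in both had a median share of 75.9%, beside 86.8% in the 5 densest, with ranges that overlapped: 71.8% to 89.7% and 83.9% to 87.4%. The value of 89.7% belonged to the sparse window from 7 to 7.5 Mb.

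The replicates differed in how they divided the mark on the X. On the X, 91 of 856 regions of replicate 1 overlapped 2 or more regions of replicate 2 (10.6%, 95% Wilson interval 8.74 to 12.9), against 6.78% over the whole list. On the large autosomal arms the share was 276 of 4456 (6.19%, 5.52 to 6.94), and it ran from 5.69% on 2R to 6.84% on 3R. In the other direction, 31 of 891 replicate 2 regions on the X (3.48%) overlapped 2 or more replicate 1 regions, against 3.43% over the whole list. Among replicate 1 regions of 10 kb or more, 45 of 118 were divided on the X (38.1%, 29.9 to 47.1), and 111 of 425 on the large arms (26.1%, 22.2 to 30.5). From 5 to 10 kb the shares were 17.9% on the X and 13.2% on the large arms, and under 5 kb they were 1.69% and 1.72%. The intervals cover counting error only, and the shares were chosen with their values in view. They therefore do not settle whether the X and the large arms differ, with or without classes of width. The 102 gaps that replicate 2 placed inside replicate 1 regions of the X were 370 bp long at the median, and 80 were at most 1 kb long. Replicate 2 listed 35 regions more than replicate 1 on the X, although on the large arms it listed 105 fewer. No test over regions was made of these differences.

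**Figure D5:**
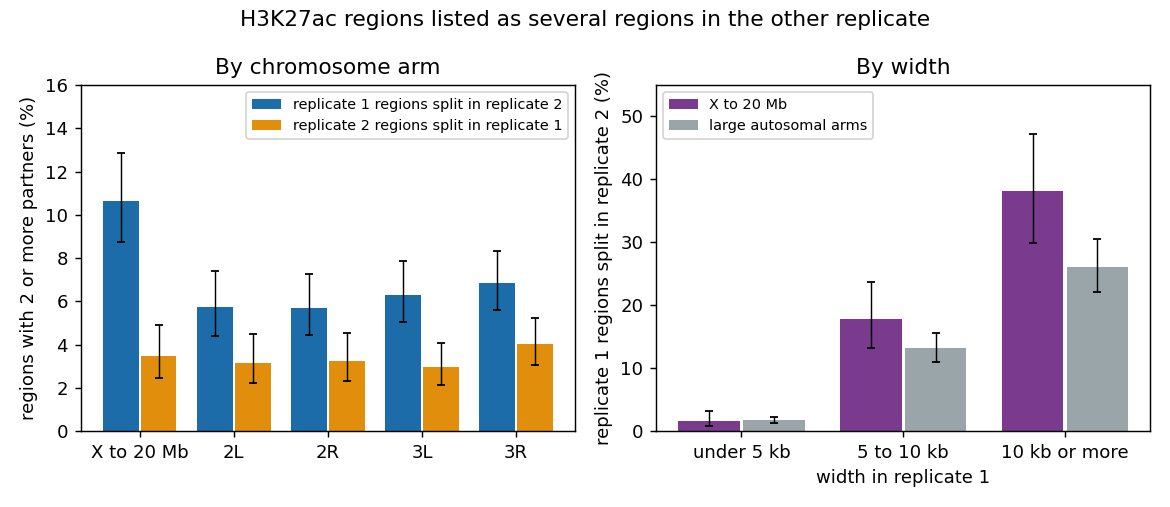
Left, share of regions that overlap 2 or more regions of the other replicate, on the X to 20 Mb and on the 4 large autosomal arms. Right, the share of replicate 1 regions split in replicate 2 by width, on the X and on the large arms together. Error bars are 95% Wilson intervals (counting error only). The X stands at 10.6% in replicate 1 and the large arms between 5.69% and 6.84%, and in regions of 10 kb or more the shares are 38.1% and 26.1%.

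Beside the large autosomal arms together, the X had higher-scoring and wider regions at a somewhat lower density. The median score was 1.02 on the X and from 0.76 to 0.86 on the 4 arms in replicate 1, and 0.97 on the X and from 0.77 to 0.84 on the arms in replicate 2. The median width was 3594 ± 236 bp on the X and 3094 ± 37.1 bp over the large arms (SD, n = 2). Both differences exceeded the SD between replicates, and no test was run. The median score was 0.19 higher on the X than over the large arms and chromosome 4 together, and 0.060 higher when only the higher-scoring 50% of each whole list was kept. Wide regions made up 12.3% ± 2.05 of the X regions and 8.96% ± 0.812 of those on the large arms. Density was 43.7 ± 1.24 per Mb on the X and 45.6 ± 0.769 on the large arms. Most of this difference came from replicate 1, with 42.8 against 46.1 per Mb, while in replicate 2 the values were close, 44.6 against 45.0. The X to 20 Mb leaves out its sparse centromere-side end and the arms are whole: with a piece of the same length, 2.42 Mb, left out of each arm, 2R was covered to 25.3% ± 1.09, above the 24.1% ± 1.09 of the X, and the other 3 arms lay below the X in each replicate. Density over the arms cut in this way was 46.7 ± 0.765 per Mb. Whole or cut, only 2L was less dense than the X in each replicate.

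Within classes of equal score, X regions were wider than large-arm regions in some classes and narrower in others. For scores from 1 to 1.5 the median width in replicate 1 was 5318 bp on the X and 5199 bp on the large arms, and in replicate 2 it was 5110 and 5170 bp. For scores from 1.5 to 2 it was 8292 and 8209 bp in replicate 1, and 7438 and 7852 bp in replicate 2. For scores from 0.5 to 1 the X regions were narrower, 2489 against 2684 bp in replicate 1 and 2561 against 2736 bp in replicate 2. For scores under 0.5 they were also narrower, 1638 against 1708 bp and 1640 against 1788 bp, and for scores of 2 or more they were wider, 11274 against 10528 bp and 11103 against 10859 bp. The mix of scores differed as well. Scores under 0.5 were given to 7.36% of the X regions and 18.0% of the large-arm regions in replicate 1, and to 7.74% and 19.9% in replicate 2. Scores of 2 or more were given to 4.56% and 1.82% in replicate 1, and to 3.48% and 1.24% in replicate 2. The sources used here give neither the threshold behind the lists nor how the input was used, and the larvae have no stated sex. A higher score from more of the mark on the X and one from X copy number or from scaling cannot be told apart here.

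The list of the replicate set covered more ground than either replicate and added regions that neither lists. Its 992 regions covered 28.5% of the 20 Mb, with a median width of 3510 bp, and 148 (14.9%) were at least 10 kb wide, against 10.5% of all its regions. Both replicates were overlapped by 681 of the 992 (68.6%, against 71.9% over the whole list), in which 90.9% of the listed bases lay. Neither replicate was overlapped by 175 (17.6%, against 13.8%), which held 4.44% of the bases and had medians of 1315 bp and a score of 0.39. The highest-scoring of these, from 927280 to 928446, was 1167 bp wide and scored 0.75. All but 3 of the 856 regions of replicate 1 and all 891 of replicate 2 overlapped the set. It joined regions that the replicates keep apart: 85 of its 992 regions overlapped 2 or more regions of replicate 1, and 125 overlapped 2 or more of replicate 2. The shares over the whole list are not given here, so these counts are not read as a trait of the X.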

How the data were processed

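The 3 deposited lists give regions with a start, an end and 1 signed score, on FlyBase release 5 per the file headers. Per the submitters' processing notes, Bowtie 0.12.7 was used, for a step they do not name. The sources used here do not give the region caller, its threshold, the use of the input or how the replicate set was made. The scores deposited by the authors were read as log2 values. Differences from the most common score of each list were logs base 2 of whole-number ratios (denominator at most 400, numerator at most 1600, relative tolerance 1e-09) for 36.4%, 52.7% and 34.3% of the scores of replicate 1, replicate 2 and the replicate set, and for at most 0.0961% with base e or 10. The computations used pandas 2.3.3, scipy 1.17.1 and numpy 2.4.6 under Python 3.11.15, with figures by matplotlib 3.10.9. Regions, gaps, windows counted from base 1, overlaps of at least 1 bp and pairs were computed in each replicate, and means carry the SD over 2 replicates. Shares have Wilson intervals for counting error. The interval functions were tested on simulated data. A region was assigned to a window by its midpoint.

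The members, the lists and the measures were chosen with earlier results of these data known. Sites were named by rank: the 10 widest shared stretches, the 10 highest mean scores of pairs, the 10 longest empty stretches, the 5 densest and emptiest 500-kb windows, the 5 largest disagreements of score and of width, the 5 highest-scoring unshared regions, the longest runs and the edges of the rule, of which the text gives those that show a pattern. The fullest 50-kb windows, the highest score of replicate 2 and the shares of divided regions were chosen with their values in view. A gene table on release 6 was at hand, and no gene was placed beside a region, since the builds differ.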

Additional observations from a re-analysis of the deposited data

How the results depend on the processing

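Of 51 values recomputed under other settings, 27 stayed within a set limit and 24 moved further. Limits were the replicate SD, the counting interval or 1.5 times the count. For the share of bases listed in both the limit was the SD over 1-Mb bins, and for the score difference of pairs the SD over pairs. That SD over pairs, 0.15, exceeds the main difference of 0.06, so this limit was loose. Most of the values cannot be negative, and the score differences, which can, kept their sign. With 1 replicate left out a value is that of the other, so these values test no stability: they gave 856 to 891 regions, 23.3% to 24.8% covered and a difference in median score between the X and the autosomal arms of 0.17 to 0.21, around a main value of 0.19. In the replicate set, the covered share was 28.5%, the median score 0.74, the median gap 4127 bp, the range over 500-kb windows 41.3 percentage points and the difference in score 0.14. The higher-scoring 50% of each list left a mean of 538.5 regions over 20.1% of the X, with a median width of 5725 bp, a median score of 1.27 and a median gap of 9789 bp. There 96.1% of replicate 2 regions were shared and the difference in score was 0.060. These shortened lists hold fewer regions over a shorter range of scores, and the cause of the changes was not tested. The whole X was covered to 22.6%. Joining regions within 500 bp or 1 kb gave median gaps of 5878 and 7143 bp. Wide regions numbered 316 at 5 kb and 25.5 at 20 kb. Reciprocal overlap of 50% held for 81.4% of replicate 1 and 78.2% of replicate 2 regions. The range of covered share was 52.9 percentage points in 250-kb and 22.9 in 1-Mb windows, and 19 windows of 100 kb were empty. Against 2R alone the difference in score was 0.15 and against 3L alone 0.23. The setting without the centromere-side ends of the arms, chosen after seeing the data, gave 0.19. No paired analysis was possible because only the 2 ChIP samples of 1 group have lists here, and the inputs with the same replicate numbers were not analysed. Without read counts, weak regions cannot be weighed by depth.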

Other observations

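Beyond 20 Mb the X was sparser. Replicate 1 listed 56 regions and replicate 2 listed 58 there, or 23.1 and 23.9 per Mb, and they covered 11.2% and 10.2% of the sequence, beside 24.8% and 23.3% up to 20 Mb. Their median score was 0.91 in each replicate, and 52 of 56 and 56 of 58 overlapped the other replicate. Gaps of at least 50 kb made up 72.6% and 72.4% of this end, beside 44.2% and 45.0% before it.

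Regions whose nearest neighbour lay more than 20 kb away were rare, 34 of 856 in replicate 1 and 39 of 891 in replicate 2. Their median scores were 1.12 and 1.09, beside 1.04 and 0.95 for regions with a neighbour within 1 kb, and their median widths 3903 and 3831 bp, beside 4129 and 3591 bp. The replicate set gave the other order for scores: its 35 such regions had medians of 0.60 and 2895 bp, beside 0.69 and 3591 bp. The score of a region said little about that of the next along the X, with a Spearman rho of 0.09 over 855 neighbours in replicate 1 and 0.03 over 890 in replicate 2.

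Shared stretches separated by at most 2 kb formed 596 runs, of which 413 held 1 stretch and 4 held 5 or more. The longest was the widest domain itself, the second, from 6861630 to 6909074, was the second widest domain with the end that replicate 2 cut off, and the next, from 2160473 to 2203764, held 4 stretches over 43.3 kb.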
